A study of Homo sapiens with 18 samples.

Results

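The 8 genes AK5, LIN7A, NRCAM, GPM6B, CNTN1, VSNL1, NAV3 and RNF182 are best known from the nervous system, and here they were followed in human mammary epithelial cells that carried a factor of the epithelial-mesenchymal transition (EMT). They were chosen by their measured values in these same arrays, as neural-type genes that differed between the factors or between the lines, so their levels and differences are a description without a test. They are 8 of 18417 genes that had a probe set with a single gene symbol, and each of them had 1 such probe set. Expression of total RNA was measured on 18 Affymetrix Human Gene 1.0 ST arrays, 3 for each of 6 groups. The groups were HMLE cells with Snail, HMLE cells with Twist and HMLE cells with vector, and MCF10A cells with Snail, arrays labelled MCF10A with Twist, and MCF10A cells with vector. HMLE cells are mammary epithelial cells immortalised by telomerase and viral T antigens, and MCF10A cells come from a spontaneously immortalised mammary line. Neither line is a tumour line. All cells were in log-phase growth in medium with fetal bovine serum, and the factors were carried by selected stable clones. The labels do not give the number of clones behind a group, nor whether the 3 arrays of a group came from separate cultures, and the errors below may therefore be technical.

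The members have separate roles in neurons. NRCAM is an adhesion molecule of the L1 family, and CNTN1 (contactin 1) is a surface protein held by a lipid anchor. Both bind partners on axons and glia. GPM6B is a membrane proteolipid of the M6 family. LIN7A is a PDZ scaffold that joins CASK and MINT proteins at synapses and at epithelial membranes, and NAV3 (neuron navigator 3) binds growing microtubule ends. VSNL1 (visinin-like 1) is a neuronal calcium sensor, AK5 is an adenylate kinase enriched in brain, and RNF182 is a RING-type ubiquitin ligase reported to be enriched in brain. Snail and Twist are transcription factors that bind E-box motifs and repress epithelial genes such as CDH1.

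The upstream regions of 4 genes are shown because these genes had the widest ranges in the arrays (AK5 and VSNL1) or serve as examples of a gene higher with Snail (LIN7A) and of one higher with Twist (RNF182) in HMLE. NRCAM and GPM6B also separated the factors, and their windows are not printed in full. Each is the stretch of 250 bases before the gene's first listed start, from RefSeq on GRCh38.p14, and capitals mark an E-box of the kinds searched.
AK5, chr1:77281769-77282018, plus strand: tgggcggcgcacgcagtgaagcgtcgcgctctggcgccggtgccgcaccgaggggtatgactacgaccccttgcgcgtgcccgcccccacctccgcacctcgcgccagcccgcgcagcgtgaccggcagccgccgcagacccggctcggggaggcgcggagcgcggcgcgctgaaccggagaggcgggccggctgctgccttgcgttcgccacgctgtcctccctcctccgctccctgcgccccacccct
VSNL1, chr2:17539722-17539971, plus strand: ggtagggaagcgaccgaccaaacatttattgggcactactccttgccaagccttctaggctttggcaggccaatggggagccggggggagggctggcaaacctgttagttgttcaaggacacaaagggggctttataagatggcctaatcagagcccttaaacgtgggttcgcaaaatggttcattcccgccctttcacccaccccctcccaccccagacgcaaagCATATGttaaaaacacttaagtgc
LIN7A, chr12:80937935-80938184, minus strand: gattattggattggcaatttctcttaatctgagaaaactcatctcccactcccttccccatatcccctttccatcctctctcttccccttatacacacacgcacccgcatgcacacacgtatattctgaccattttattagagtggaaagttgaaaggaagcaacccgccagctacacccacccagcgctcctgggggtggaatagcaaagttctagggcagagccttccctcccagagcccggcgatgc
RNF182, chr6:13924196-13924445, plus strand: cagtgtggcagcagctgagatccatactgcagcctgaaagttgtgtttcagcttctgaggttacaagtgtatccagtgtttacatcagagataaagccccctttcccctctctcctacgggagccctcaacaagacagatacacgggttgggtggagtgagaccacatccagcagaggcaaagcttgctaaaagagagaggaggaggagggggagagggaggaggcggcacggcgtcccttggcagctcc
The AK5 window is rich in G and C, with 78.0% GC over its 300 bases and 46 CpG dinucleotides. The median of all windows was 58.7% GC and 14 CpG. The VSNL1, LIN7A and RNF182 windows held 53.7%, 52.7% and 55.3% GC and 9, 11 and 8 CpG.

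E-box letters were searched on both strands in 18 windows of the 8 genes, each running from 250 bases before to 50 bases after a listed start. CAGGTG, or CACCTG on the other strand, occurred in 3 of the 18 windows (16.7%), in 3 genes, and 20.6% of 35116 RefSeq windows of this length held it. CATCTG, or CAGATG, also occurred in 3 of the 18 windows (16.7%), in 3 genes, against 14.7% of all windows. The palindrome CATATG occurred in 1 of the 18 windows (5.56%), that of VSNL1, against 3.04% of all windows. No difference is read from shares over 18 windows. The motifs do not overlap each other, and 12 of the 18 windows held none of them. The stretches that hold a match before or across a listed start, other than the VSNL1 match shown above, are printed with the E-box in capitals.
AK5, chr1:77283018-77283047, plus strand: tgctcgacaaccCACCTGgagatagcgggt
NRCAM, chr7:108456655-108456684, minus strand: ggggcggccgctCAGGTGaggggccaccca
NRCAM, chr7:108243443-108243472, minus strand: taaagtacaaggCAGATGgactcctactga
LIN7A, chr12:80937846-80937875, minus strand: cagttgcgtctcCATCTGgctaccaaccca
CNTN1, chr12:40908342-40908371, plus strand: tctttcttgatgCAGGTGtttaaaattatc
The CNTN1 match spans a listed start. These matches describe letters only, and binding was not measured in these arrays.

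The introduced factors were higher in the arrays labelled with them. SNAI1, the gene of Snail, stood at 12.53 ± 0.01 in HMLE Snail arrays against 7.39 ± 0.14 in HMLE Vector arrays, and at 12.49 ± 0.07 in MCF10A Snail arrays against 8.32 ± 0.14 in MCF10A Vector arrays (log2 level, mean ± SD, n = 3). TWIST1 stood at 11.49 ± 0.14 in HMLE Twist arrays against 9.69 ± 0.01 in HMLE Vector arrays, and at 10.99 ± 0.03 in the arrays labelled MCF10A Twist against 10.07 ± 0.09 in MCF10A Vector arrays. TWIST1 was not particular to the Twist arrays: it stood at 10.81 in HMLE Snail arrays, a rise of 1.12 ± 0.07 over HMLE Vector (adjusted p = 3.33e-10), and its rise in the labelled MCF10A Twist arrays was 0.92 ± 0.07 (adjusted p = 3.33e-09). Those labelled arrays went against their line name in MTAP, CDKN2A and CDKN2B. MTAP lies beside CDKN2A and CDKN2B in a region known to be deleted in MCF10A. It was measured at 10.80 ± 0.03 there, against 6.02 ± 0.15 in MCF10A Snail and 5.98 ± 0.36 in MCF10A Vector arrays, and at 9.83 to 10.26 in the means of the 3 HMLE groups. Its level in the labelled arrays was also above that of HMLE Vector, by 0.54 ± 0.12 (adjusted p = 0.00147). CDKN2A and CDKN2B averaged 10.67 and 10.45 in the labelled arrays, against 8.26 and 7.90 in MCF10A Vector and 9.93 and 9.80 in HMLE Vector. For this reason the 3 arrays are called "labelled MCF10A Twist" throughout. The 8 genes and the counts of their relatives are set against both vector groups. Other counts and single-gene differences in these arrays are from MCF10A Vector unless HMLE Vector is named. The epithelial markers CDH1, EPCAM, KRT5, KRT14, KRT8 and KRT18 averaged 8.71 to 8.74 per array in HMLE Snail and 7.90 to 8.10 in HMLE Twist, against 12.93 to 12.98 in HMLE Vector. They averaged 12.17 to 12.22 in MCF10A Snail and 8.13 to 8.24 in labelled MCF10A Twist, against 12.64 to 12.68 in MCF10A Vector. The MCF10A Snail mean was thus nearer to its vector group than that of any other factor group, without overlapping it. In MCF10A with Snail EPCAM fell by 1.65 ± 0.11 (adjusted p = 5.4e-09) and CDH1 fell by 0.57 ± 0.11 (adjusted p = 0.00112), while KRT5 and KRT14 differed by 0.05 ± 0.08 and 0.02 ± 0.09 (adjusted p = 0.733 and 0.893). The Snail and Twist comparisons of a line share its vector arrays. Below, a level is a log2 value after robust multi-array averaging (RMA), and a difference is that of group means on the log2 scale with its limma standard error (SE).

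**Figure D1:**
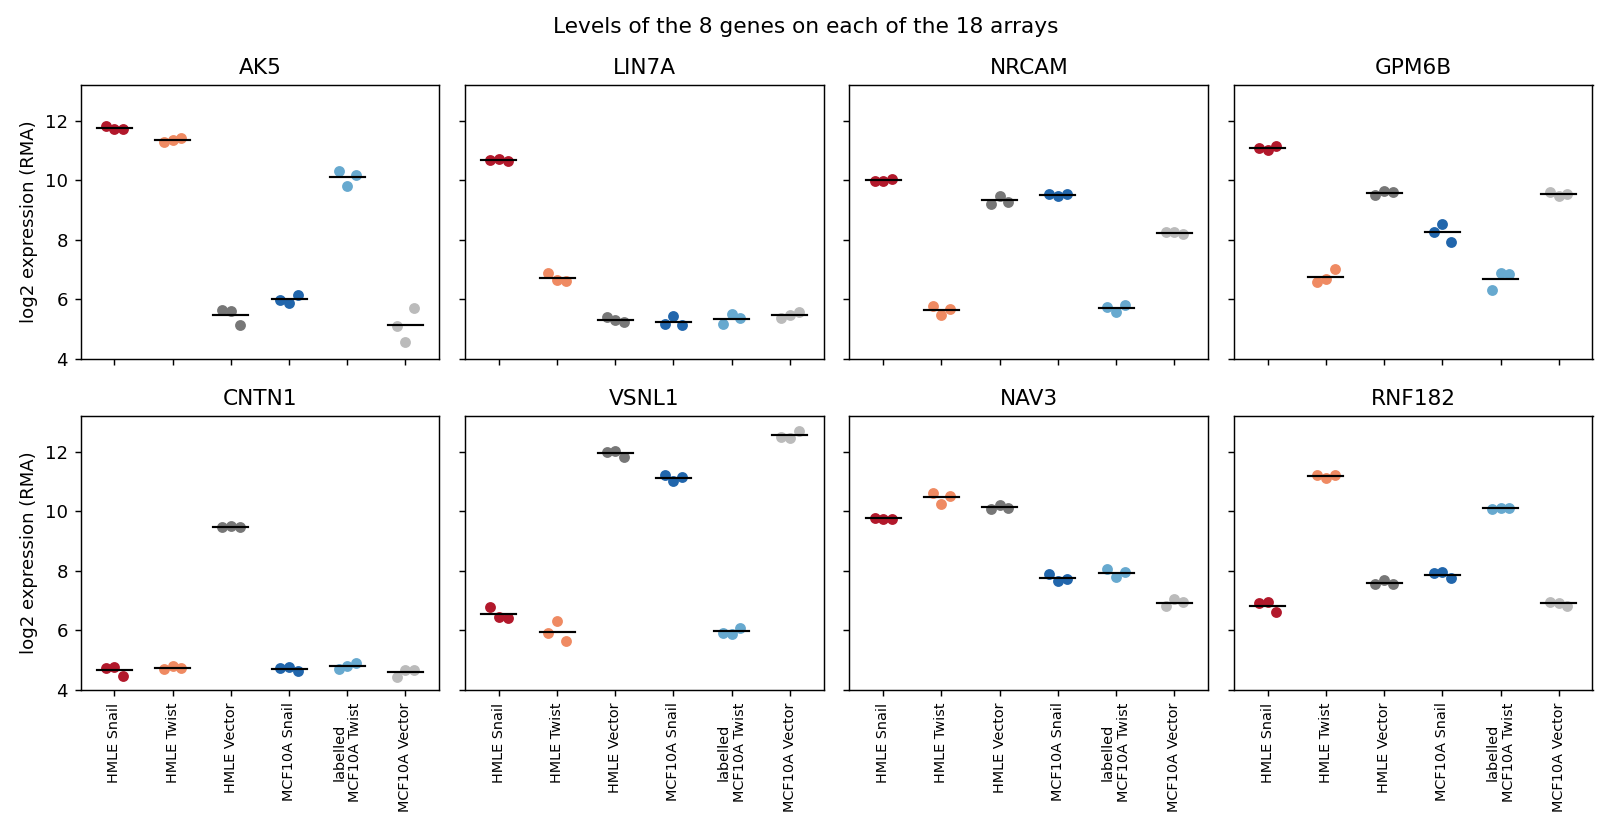
Log2 expression (RMA, vertical axis) of the 8 genes on each of the 18 arrays, with a point per array and a bar at the group mean of 3 arrays. AK5 reaches 9.82 or more in HMLE Snail, HMLE Twist and labelled MCF10A Twist arrays and stays at 6.15 or less in the others, CNTN1 is high in HMLE Vector alone, and the 3 HMLE groups lie above the 3 MCF10A-labelled groups in NAV3.

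Among the surface proteins, NRCAM separated the factors. It measured 9.96, 9.99 and 10.04 in HMLE Snail arrays and 5.76, 5.47 and 5.69 in HMLE Twist arrays, against 9.19, 9.48 and 9.28 in HMLE Vector arrays. In MCF10A it measured 9.55, 9.47 and 9.55 with Snail and 5.73, 5.56 and 5.81 in the labelled Twist arrays, against 8.27, 8.26 and 8.19 with vector. Both Snail groups were thus above the vector group of their line label and both Twist groups below it, with no overlap in any of the 4 pairs. The difference with Snail was 0.68 ± 0.08 in HMLE and 1.28 ± 0.08 in MCF10A. With Twist it was -3.68 ± 0.08 in HMLE, or 12.8-fold lower, and -2.54 ± 0.08 in the labelled MCF10A arrays, or 5.81-fold lower. In the order of groups, HMLE Snail stood highest, MCF10A Snail overlapped HMLE Vector at 9.52 and 9.32, and labelled MCF10A Twist overlapped HMLE Twist at 5.70 and 5.64.

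GPM6B took opposite directions with Snail in the 2 lines. It measured 11.08, 11.03 and 11.14 in HMLE Snail arrays and 6.58, 6.67 and 7.03 in HMLE Twist arrays, against 9.52, 9.63 and 9.60 in HMLE Vector arrays. In MCF10A it measured 8.26, 8.54 and 7.94 with Snail and 6.33, 6.88 and 6.84 in the labelled Twist arrays, against 9.62, 9.48 and 9.53 with vector. Every HMLE Snail array was above every HMLE Vector array and every MCF10A Snail array below every MCF10A Vector array. The differences with Snail were 1.50 ± 0.15 in HMLE and -1.30 ± 0.15 in MCF10A. Those with Twist were close to each other, at -2.82 ± 0.15 in HMLE and -2.86 ± 0.15 in the labelled MCF10A arrays. The vector groups of the lines overlapped, with means of 9.58 in HMLE and 9.54 in MCF10A.

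CNTN1 was high in a single group. It measured 4.74, 4.76 and 4.47 in HMLE Snail arrays and 4.71, 4.79 and 4.74 in HMLE Twist arrays, against 9.46, 9.49 and 9.48 in HMLE Vector arrays. MCF10A Snail arrays measured 4.74, 4.76 and 4.64 and labelled MCF10A Twist arrays 4.70, 4.79 and 4.90, against 4.44, 4.68 and 4.68 in MCF10A Vector arrays. The other 5 groups therefore had means between 4.60 and 4.80, each overlapping the next in the order of levels, while HMLE Vector stood 4.68 above the nearest of them. All 5 of these lower means were below 5.7, under which 10% of all gene values lay. With either factor HMLE cells measured at that low level, as the MCF10A-labelled groups did. The difference from HMLE Vector was -4.82 ± 0.08 with Snail, or 28.3-fold lower, and -4.73 ± 0.08 with Twist, or 26.5-fold lower. HMLE Vector exceeded MCF10A Vector by 4.88 ± 0.08, or 29.3-fold.

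LIN7A, the scaffold, was high with Snail in HMLE alone. It measured 10.67, 10.71 and 10.64 in HMLE Snail arrays and 6.87, 6.65 and 6.60 in HMLE Twist arrays, against 5.42, 5.30 and 5.25 in HMLE Vector arrays. The 3 MCF10A-labelled groups lay between 5.15 and 5.57 on all 9 arrays, overlapped each other, and overlapped HMLE Vector. These levels, with those of HMLE Vector, were below 5.7, under which 10% of all gene values lay. The difference from HMLE Vector was 5.35 ± 0.10 with Snail, or 40.8-fold, and 1.38 ± 0.10 with Twist, or 2.61-fold. HMLE Snail exceeded HMLE Twist by 3.97 ± 0.10, or 15.6-fold. In MCF10A the differences from vector were -0.22 ± 0.10 with Snail and -0.13 ± 0.10 in the labelled Twist arrays, with overlapping groups in both.

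NAV3 followed the line more than the factor. It measured 9.78, 9.73 and 9.75 in HMLE Snail arrays and 10.62, 10.25 and 10.51 in HMLE Twist arrays, against 10.06, 10.22 and 10.09 in HMLE Vector arrays. MCF10A Snail arrays measured 7.88, 7.64 and 7.71 and labelled MCF10A Twist arrays 8.07, 7.79 and 7.96, against 6.80, 7.04 and 6.95 in MCF10A Vector arrays. All 9 HMLE arrays were above all 9 MCF10A-labelled arrays, and the gap between the nearest group means was 1.82. HMLE Vector exceeded MCF10A Vector by 3.20 ± 0.10, or 9.16-fold. The differences from vector were smaller: -0.37 ± 0.10 with Snail and 0.33 ± 0.10 with Twist in HMLE, and 0.81 ± 0.10 with Snail and 1.01 ± 0.10 in the labelled Twist arrays in MCF10A. The labelled MCF10A Twist arrays overlapped MCF10A Snail in NAV3 and differed from HMLE Vector by -2.19 ± 0.10.

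VSNL1, the calcium sensor, was high in the 3 groups whose mean epithelial marker level was high (HMLE Vector, MCF10A Snail and MCF10A Vector). It measured 6.77, 6.43 and 6.41 in HMLE Snail arrays and 5.92, 6.30 and 5.65 in HMLE Twist arrays, against 12.00, 12.02 and 11.82 in HMLE Vector arrays. In MCF10A it measured 11.22, 11.03 and 11.15 with Snail and 5.92, 5.88 and 6.09 in the labelled Twist arrays, against 12.49, 12.45 and 12.69 with vector. Each factor group was below its vector group without overlap, and MCF10A Snail was the factor group nearest to its vector group. The difference was -5.41 ± 0.13 with Snail in HMLE, or 42.6-fold lower, and -1.41 ± 0.13 with Snail in MCF10A, or 2.66-fold lower. With Twist it was -5.99 ± 0.13 in HMLE, or 63.7-fold lower, and -6.58 ± 0.13 in the labelled MCF10A arrays, or 96-fold lower.

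AK5 ran opposite to VSNL1. It measured 11.83, 11.71 and 11.73 in HMLE Snail arrays and 11.30, 11.35 and 11.42 in HMLE Twist arrays, against 5.64, 5.61 and 5.14 in HMLE Vector arrays. In MCF10A it measured 5.98, 5.88 and 6.15 with Snail and 10.32, 9.82 and 10.18 in the labelled Twist arrays, against 5.09, 4.57 and 5.72 with vector. The groups with a low epithelial marker level had the high AK5 level, and MCF10A Snail stood only just above the vector groups. The difference was 6.29 ± 0.21 with Snail in HMLE, or 78.4-fold, and 5.90 ± 0.21 with Twist in HMLE, or 59.5-fold. It was 4.98 ± 0.21 in the labelled MCF10A Twist arrays, or 31.6-fold, and 0.88 ± 0.21 with Snail in MCF10A, or 1.84-fold. MCF10A Vector was the most spread group of AK5, with an SD of 0.58, and overlapped HMLE Vector. Their means, 5.13 and 5.46, were below 5.7, under which 10% of all gene values lay. Over the 18 arrays the Pearson correlation of AK5 with VSNL1 was -0.97, a description over 18 arrays that fall into 6 groups.

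RNF182 was high with Twist. It measured 6.91, 6.95 and 6.63 in HMLE Snail arrays and 11.20, 11.10 and 11.22 in HMLE Twist arrays, against 7.56, 7.68 and 7.54 in HMLE Vector arrays. In MCF10A it measured 7.93, 7.95 and 7.74 with Snail and 10.06, 10.12 and 10.09 in the labelled Twist arrays, against 6.96, 6.93 and 6.81 with vector. Snail was accompanied by opposite directions in the 2 lines, with each Snail group apart from its vector group. The difference with Twist was 3.58 ± 0.08 in HMLE, or 12-fold, and 3.19 ± 0.08 in the labelled MCF10A arrays, or 9.11-fold. With Snail it was -0.76 ± 0.08 in HMLE and 0.97 ± 0.08 in MCF10A. HMLE Snail differed from HMLE Twist by -4.35 ± 0.08, or 20.3-fold lower, and RNF182 correlated at -0.9 with both NRCAM and GPM6B over the 18 arrays.

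**Figure D2:**
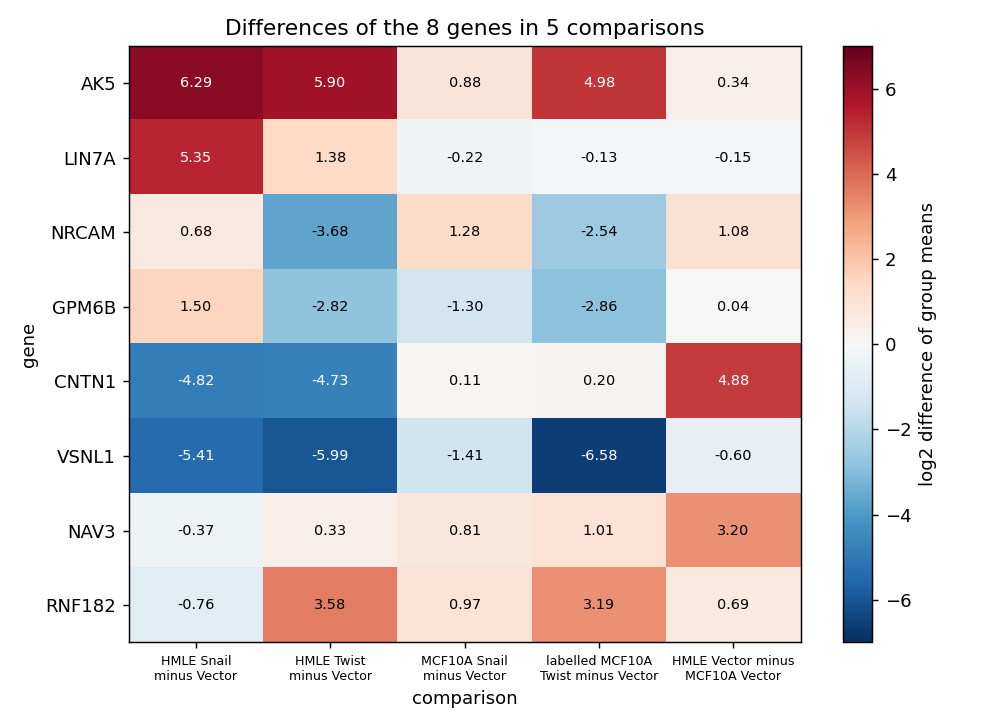
Log2 difference of group means for the 8 genes (rows) in 5 comparisons (columns), with red for a higher and blue for a lower level in the group named first. AK5 and VSNL1 have opposite signs in the 4 factor comparisons, and LIN7A and CNTN1 differ from vector mainly in HMLE. NRCAM changes sign between Snail and Twist in HMLE, and between MCF10A Snail and the labelled MCF10A Twist arrays.

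Counted together, the genes were at least 2-fold apart from vector, with groups that did not overlap, in 5 of 8 cases with Snail in HMLE (3 higher, 2 lower) and in 7 of 8 with Twist in HMLE (3 higher, 4 lower). Among all genes the shares past this limit were 8.88% and 7.89%. In MCF10A the counts were 3 of 8 with Snail (1 higher, 2 lower; 1.79% of all genes) and 6 of 8 in the labelled Twist arrays (3 higher, 3 lower; 10.5% of all genes). Between the vector groups, 3 of 8 genes (CNTN1, NAV3 and NRCAM) were at least 2-fold higher in HMLE and none lower, against 6.35% of all genes in either direction. HMLE Snail and HMLE Twist were at least 2-fold apart in 4 of 8 genes (LIN7A, NRCAM and GPM6B higher and RNF182 lower with Snail), against 2.82% of all genes. Set against HMLE Vector, the labelled MCF10A Twist arrays differed by 4.64 ± 0.21 in AK5, -5.99 ± 0.13 in VSNL1, -3.62 ± 0.08 in NRCAM, -2.90 ± 0.15 in GPM6B and 2.50 ± 0.08 in RNF182. LIN7A, with a difference of 0.02 ± 0.10, overlapped in that pair. Since these contrasts chose the genes, nothing is read from the counts against the background.

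The range over the 18 arrays gives the same choice another way. The spread between the lowest and the highest array was 7.26 for AK5, 7.05 for VSNL1, 5.56 for LIN7A, 5.05 for CNTN1, 4.81 for GPM6B, 4.59 for RNF182, 4.57 for NRCAM and 3.81 for NAV3, against a median of 0.71 over all genes. A wider range was found in 0.0326% of all genes for AK5 and in 2.19% for NAV3.

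The closest relatives and partners of the 8 genes were not chosen by these rules, but their lists were drawn up with earlier results of these data known. They were tested with limma over all 18417 genes. Of 57 such genes in 8 lists, 49 were measured. With Snail in HMLE 17 rose and 8 fell at an adjusted p under 0.05, and with Twist in HMLE 16 rose and 8 fell, where 47.7% and 43.7% of all genes passed in either direction. With Snail in MCF10A 5 rose and 11 fell (22.7% of all genes passed), and in the labelled MCF10A Twist arrays 9 rose and 17 fell against MCF10A Vector (50.4% passed). Between the vector groups 10 were higher and 13 lower in HMLE (44.0% passed). HMLE Snail was above HMLE Twist in 9 and below it in 10 (32.1% passed), and labelled MCF10A Twist was above HMLE Vector in 14 and below it in 12 (49.2% passed). The median difference of the 49 lay between -0.07 and 0.09 in these 7 comparisons, and that of all genes between -0.03 and 0.04. Nothing particular to these lists is read from the counts.

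The paralogs of LIN7A moved little. LIN7B and LIN7C, which fill the same place in the scaffold, differed from HMLE Vector by 0.20 ± 0.09 and -0.13 ± 0.07 with Snail (adjusted p = 0.0739 and 0.126) where LIN7A differed by 5.35. CASK, the kinase-like scaffold that binds LIN7 proteins, rose by 0.56 ± 0.08 with Snail in HMLE (adjusted p = 1.31e-05) and fell by 0.44 ± 0.08 with Snail in MCF10A (adjusted p = 0.000507). The Snail effects differed by 1.00 (adjusted p = 1.52e-06). MPP7, another scaffold that binds LIN7 proteins, rose by 0.54 ± 0.09 with Snail in HMLE (adjusted p = 5.14e-05) and fell by 1.36 ± 0.09 in MCF10A (adjusted p = 5.04e-09). The effects differed by 1.89 ± 0.12 (adjusted p = 1.93e-09). Of the 11 measured genes of this complex, 5 rose and 2 fell with Snail in HMLE, where 47.7% of all genes passed.

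The relatives of NRCAM shared its pattern in part. L1CAM, the founding member of the family, fell by 1.68 ± 0.09 with Snail in HMLE (adjusted p = 5.41e-11) and rose by 1.06 ± 0.09 with Snail in MCF10A (adjusted p = 1.39e-07), where NRCAM was higher with Snail in both lines. With Twist L1CAM fell by 0.84 ± 0.09 in HMLE (adjusted p = 5.04e-07) and fell by 0.54 ± 0.09 in the labelled MCF10A arrays (adjusted p = 5.6e-05), so it had the direction of NRCAM in 3 of the 4 factor comparisons. NFASC (neurofascin) rose by 0.70 ± 0.08 with Snail in HMLE and fell by 0.43 ± 0.08 with Twist in HMLE and with Snail in MCF10A, with adjusted p between 1.82e-06 and 0.00112. CHL1 passed in none of the 4 factor comparisons, with differences between -0.08 and 0.04 and adjusted p between 0.436 and 0.962. ANK3, the ankyrin that anchors L1-family proteins to the membrane skeleton, fell in all 4, with differences of -1.60 ± 0.10 with Snail and -1.89 ± 0.10 with Twist in HMLE, -0.83 ± 0.10 with Snail in MCF10A and -3.72 ± 0.10 in the labelled MCF10A Twist arrays. The largest adjusted p of these was 8.87e-06.

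GPM6A, the M6 relative of GPM6B, did not pass in HMLE, with differences of -0.08 ± 0.12 with Snail (adjusted p = 0.667) and -0.01 ± 0.12 with Twist (adjusted p = 0.947). In MCF10A it fell by 0.55 ± 0.12 with Snail (adjusted p = 0.0031). In the labelled MCF10A Twist arrays GPM6A was lower than in MCF10A Vector by 0.81 ± 0.12 (adjusted p = 2e-05). From HMLE Vector it differed there by -0.03 ± 0.12 (adjusted p = 0.875).

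Of the 10 measured contactins and contactin partners, 2 rose and 1 fell with Snail in HMLE, and likewise with Twist. Of all genes 47.7% and 43.7% passed in these comparisons. The receptor phosphatase PTPRZ1, a binding partner of contactin 1, averaged 5.63 in HMLE Snail and 5.40 in HMLE Twist arrays, against 8.79 in HMLE Vector arrays. It fell by 3.16 ± 0.18 with Snail and fell by 3.40 ± 0.18 with Twist in HMLE (adjusted p = 1.18e-10 and 5.1e-11). In MCF10A it differed by -0.15 ± 0.18 with Snail (adjusted p = 0.638) and fell by 3.05 ± 0.18 in the labelled Twist arrays (adjusted p = 1.5e-10). Unlike CNTN1, it did not differ between the vector groups past the test (0.27 ± 0.18, adjusted p = 0.259). CNTNAP1, the contactin-associated protein of axon-glia junctions, rose in all 4 factor comparisons, by between 0.55 ± 0.10 with Snail in MCF10A and 1.72 ± 0.10 in the labelled MCF10A Twist arrays (largest adjusted p = 0.000443). CNTN3 rose by 1.56 ± 0.19 with Snail in HMLE (adjusted p = 1.79e-06) and fell by 1.13 ± 0.19 with Snail in MCF10A (adjusted p = 0.000227).

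Among the 12 measured relatives of VSNL1, 4 rose and 1 fell with Snail in HMLE (47.7% of all genes passed), with differences from -0.46 to 1.01. With Twist in HMLE 5 rose and 1 fell (43.7% of all genes passed), from -0.54 to 0.99. The differences of VSNL1 itself were -5.41 and -5.99. KCNIP3, a calcium sensor that also binds DNA, rose by 1.01 ± 0.05 with Snail and 0.99 ± 0.05 with Twist in HMLE (adjusted p = 4.33e-11 and 6.8e-11). HPCAL1, a hippocalcin-like sensor, rose by 0.55 ± 0.06 and 0.93 ± 0.06 (adjusted p = 4.29e-07 and 7.02e-10).

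Of the 4 measured adenylate kinases other than AK5, AK4, a mitochondrial form, fell by 1.32 ± 0.07 with Snail in HMLE (adjusted p = 4.33e-11) and differed by -0.03 ± 0.07 with Twist (adjusted p = 0.761). AK9 rose by 0.55 ± 0.12 with Snail and by 1.00 ± 0.12 with Twist in HMLE, where AK5 differed by 6.29 and 5.90 (adjusted p of AK9 0.000976 and 2.52e-06). The other neuron navigators were lower in HMLE Vector than in MCF10A Vector, with differences of -0.79 ± 0.06 for NAV1 and -1.31 ± 0.07 for NAV2 (adjusted p = 5.04e-09 and 2.62e-10), while NAV3 was 3.20 higher. With Snail in HMLE, NAV1 rose by 1.47 ± 0.06 and NAV2 by 1.84 ± 0.07 (adjusted p = 1e-12 and 1.73e-12). Of the 3 ligases related to RNF182, RNF152 fell by 0.57 ± 0.12 with Twist in HMLE and fell by 1.16 ± 0.12 in the labelled MCF10A Twist arrays (adjusted p = 0.000645 and 2.04e-07). With Snail it fell by 0.58 ± 0.12 in MCF10A (adjusted p = 0.00135) and differed by 0.25 ± 0.12 in HMLE (adjusted p = 0.0906). RNF183 and RNF186 passed in none of the 4 factor comparisons.

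**Figure D3:**
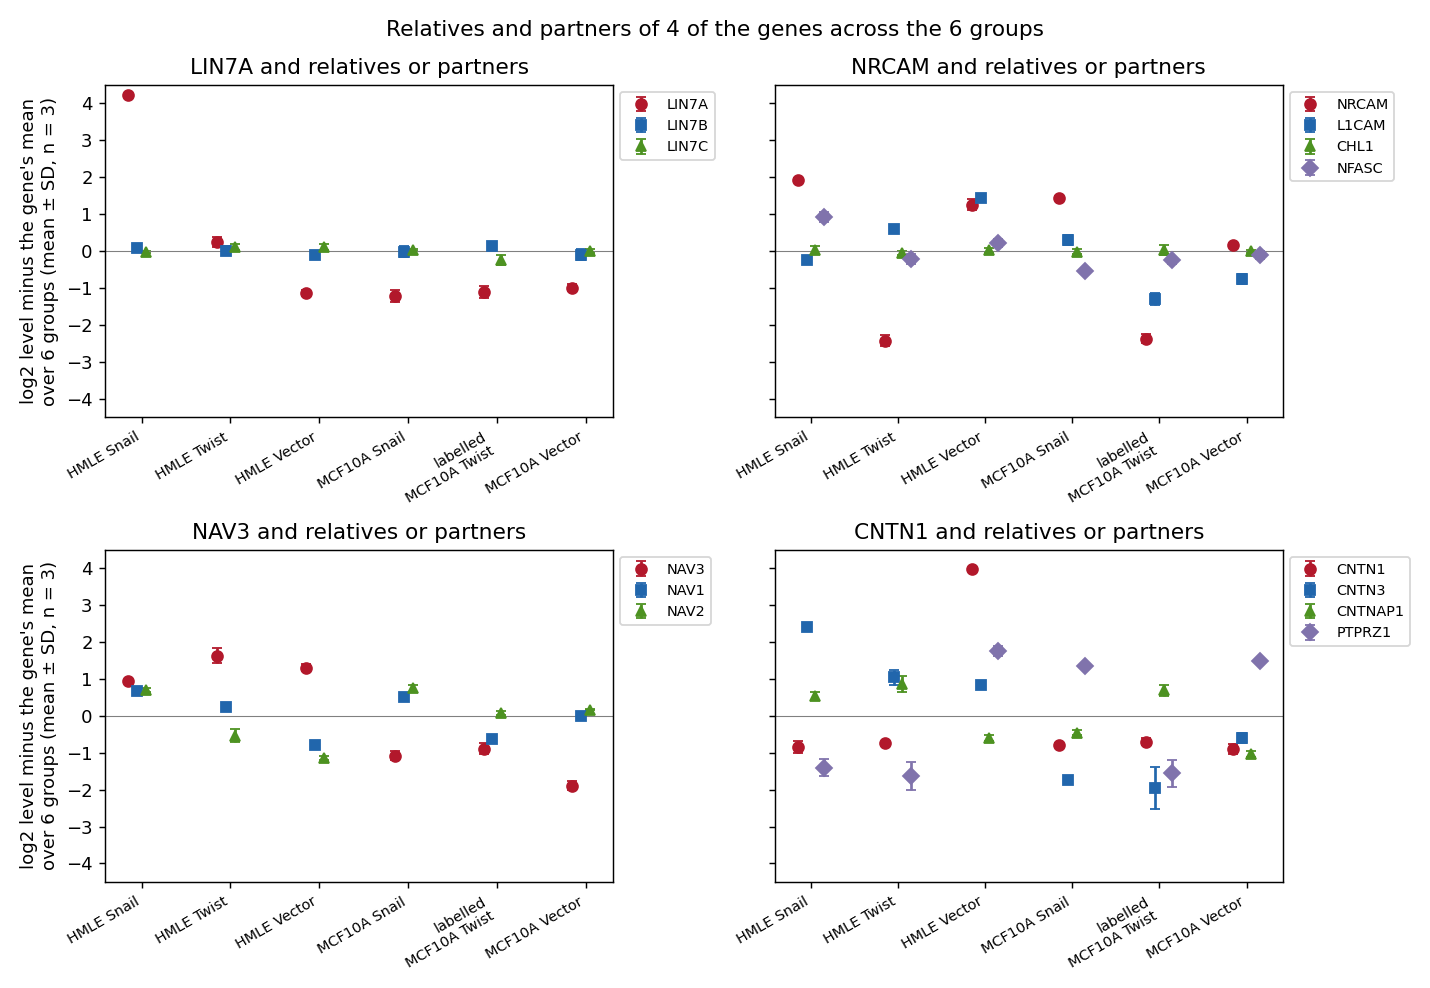
Group means of log2 level (RMA) with the SD of 3 arrays for LIN7A, NRCAM, NAV3 and CNTN1 and their relatives or partners, each drawn relative to that gene's own mean over the 6 groups. LIN7B and LIN7C stay near 0 where LIN7A is high in HMLE Snail, and NAV1 and NAV2 are lower in HMLE Vector than in MCF10A Vector where NAV3 is higher.

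The difference between the lines in the effect of a factor was tested for the same 49 relatives. The Snail effect was higher in HMLE for 21 and lower for 8, where 40.2% of all genes passed in either direction. The Twist effect was higher in HMLE for 20 and lower for 5, where 39.0% passed, and this count rests on the labelled MCF10A Twist arrays. For the 8 genes themselves the difference of Snail effects, given without a test, was 5.41 ± 0.30 for AK5, 5.57 ± 0.14 for LIN7A and 2.80 ± 0.21 for GPM6B. It was -4.93 ± 0.12 for CNTN1 and -4.00 ± 0.19 for VSNL1, and between -1.74 and -0.60 for the other 3.

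Among other neural genes, calls were made in both directions. Of 18 measured neural adhesion molecules outside these families, 5 rose and 3 fell with Snail in HMLE, where 47.7% of all genes passed. CADM3, a nectin-like adhesion molecule, rose by 4.70 ± 0.09 and NEGR1, a neuronal growth regulator, by 3.02 ± 0.10 (adjusted p = 1.07e-16 and 1.64e-13), while DSCAM fell by 2.75 ± 0.11 (adjusted p = 8.03e-13). With Twist in HMLE 5 rose and 4 fell (43.7% of all genes passed), with Snail in MCF10A 2 rose and 3 fell (22.7%), and in the labelled MCF10A Twist arrays 8 rose and 4 fell (50.4%). NLGN4X, a neuroligin, differed by -3.05 ± 0.13 between HMLE Vector and MCF10A Vector (adjusted p = 4.56e-12), and NCAM2 rose by 3.07 ± 0.15 in the labelled MCF10A Twist arrays (adjusted p = 1.64e-11).

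Of 23 measured neuron markers, 9 rose and 5 fell with Snail in HMLE (47.7% of all genes passed), and 3 rose and 6 fell with Twist in HMLE (43.7%). With Snail in MCF10A 3 rose and 0 fell (22.7%), and in the labelled MCF10A Twist arrays 7 rose and 2 fell (50.4%). Between the vector groups 9 were higher in HMLE and none lower (44.0%). Nothing particular to the neural lists is read from these counts. The synaptic vesicle protein SYT1 rose by 1.95 ± 0.08 with Snail in HMLE (adjusted p = 9.43e-13). In the same comparison UCHL1 fell by 1.82 ± 0.14, and the neurofilament genes NEFH and NEFM fell by 1.49 ± 0.10 and 1.37 ± 0.12 (largest adjusted p = 3.33e-08). The neuronal hydrolase UCHL1 and the filament protein INA were higher in HMLE Vector than in MCF10A Vector by 3.68 ± 0.14 and 3.77 ± 0.18, and with Twist in HMLE they differed from vector by -3.88 ± 0.14 and -3.07 ± 0.18. The granin SCG2 and the neuronal enolase ENO2 rose with Twist in HMLE, by 2.38 ± 0.15 and 2.21 ± 0.08, and in the labelled MCF10A Twist arrays, by 3.57 ± 0.15 and 3.24 ± 0.08. MAP2, a microtubule protein of dendrites, rose by 2.65 ± 0.08 with Snail in MCF10A and fell by 1.56 ± 0.08 in the labelled Twist arrays. Among the differences given here without their own adjusted p, the largest adjusted p was 8.98e-10. The mean of the 23 markers per array ran from 7.55 to 7.61 in HMLE Snail and from 7.25 to 7.38 in HMLE Twist, against 7.53 to 7.56 in HMLE Vector, and from 6.92 to 6.98 in MCF10A Snail and 7.14 to 7.27 in labelled MCF10A Twist, against 6.79 to 6.83 in MCF10A Vector.

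Of 11 measured glia markers, 3 rose and 1 fell with each factor in HMLE (47.7% of all genes passed with Snail and 43.7% with Twist), and 0 passed in limma with Snail in MCF10A or between the vector groups (22.7% and 44.0%). At an unadjusted p under 0.05 those last counts were 1 and 0. The myelin protein MBP fell by 1.29 ± 0.13 with Snail in HMLE (adjusted p = 2.48e-07). The markers that rose there were NES by 0.89 ± 0.13, ALDH1L1 by 0.70 ± 0.09 and S100B by 0.56 ± 0.12 (largest adjusted p = 0.000651). In the labelled MCF10A Twist arrays S100B rose by 0.34 ± 0.12 and MBP fell by 0.67 ± 0.13 against MCF10A Vector (adjusted p = 0.0206 and 0.000337). The array means of the list lay between 6.78 and 7.13 in all 6 groups. The part of neural or glial cells in the values of the 8 genes was not tested. REST, the repressor that keeps neuronal genes low outside the nervous system, rose by 0.24 ± 0.06 with Snail and 0.18 ± 0.06 with Twist in HMLE (adjusted p = 0.00269 and 0.0194). It differed by 0.02 ± 0.06 with Snail in MCF10A (adjusted p = 0.856). In the labelled Twist arrays REST fell by 0.15 ± 0.06 against MCF10A Vector (adjusted p = 0.0421). Against HMLE Vector it differed there by -0.10 ± 0.06 (adjusted p = 0.174). Of 8 genes of REST and its corepressors, 1 rose and 4 fell with each factor in HMLE, beside the same 47.7% and 43.7% of all genes. The histone demethylase KDM1A fell by 0.54 ± 0.06 with Snail (adjusted p = 3.26e-07) and the deacetylase HDAC1 fell by 0.46 ± 0.06 with Twist (adjusted p = 2.45e-06).

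**Figure D4:**
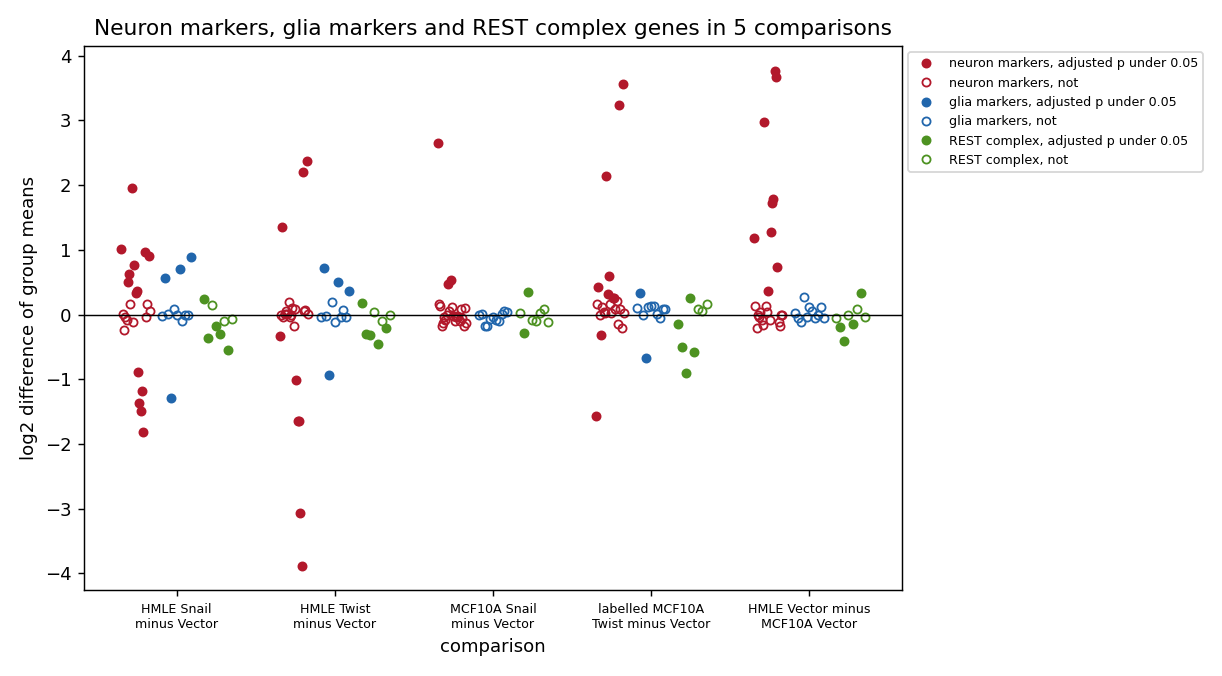
Log2 difference of group means (vertical axis) for each measured neuron marker, glia marker and REST complex gene in 5 comparisons, with a point per gene, filled where the adjusted p was under 0.05. Filled neuron markers lie on both sides of 0 with each factor in HMLE, and above 0 alone between the vector groups.

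The genes whose profile over the 18 arrays was most like each member are given with Pearson's r, which here compares 6 groups of 3 arrays and carries no test. For AK5 these were the G-protein regulator RGS4 (r = 0.997), the membrane protein SMIM14 (0.993) and the collagen COL1A1 (0.992), among 135 genes over 0.95. RGS4 averaged 12.09 ± 0.07 in HMLE Snail and 11.82 ± 0.07 in HMLE Twist, against 6.74 ± 0.19 in HMLE Vector. For VSNL1 they were the protease inhibitor SPINT1 (0.996), the desmosomal protein PERP (0.995) and the lipid synthase CDS1 (0.994), among 217 genes over 0.95. CNTN1 was most like GRHL2, an epithelial transcription factor (0.998), the cornified envelope gene LCE3D (0.996) and the long non-coding RNA UCA1 (0.995), among 58. GRHL2 averaged 6.02 ± 0.06 in HMLE Snail and 6.15 ± 0.09 in HMLE Twist, against 10.21 ± 0.02 in HMLE Vector. It averaged no more than 6.20 in the MCF10A-labelled groups.

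LIN7A was most like LRRTM3, a synaptic adhesion protein (0.993), the galactosyltransferase B3GALT1 (0.988) and LMO7 (0.987), among 39 genes over 0.95. LRRTM3 averaged 11.76 ± 0.06 in HMLE Snail and 7.65 ± 0.26 in HMLE Twist, against 6.32 ± 0.10 in HMLE Vector. NAV3 was most like the smooth muscle protein SMTN (0.980), the retinol dehydrogenase RDH11 (0.980) and SMAGP (0.979), among 19. The other members had few such neighbours. NRCAM had 4 over 0.95, led by the PDZ protein MPDZ (0.974), TNRC6C (0.967) and MATN1-AS1 (0.963). RNF182 had 5, led by the neuronal pentraxin NPTX1 (0.969), the G-protein subunit GNAZ (0.967) and the formin FMN2 (0.962). GPM6B had 2, the polarity protein PRICKLE1 (0.968) and PIK3C2G (0.956), followed by SIPA1L1 (0.937). PRICKLE1 averaged 11.99 ± 0.03 in HMLE Snail and 8.42 ± 0.12 in HMLE Twist, against 10.96 ± 0.05 in HMLE Vector. With Snail in MCF10A, where the GPM6B mean differed by -1.30, PRICKLE1 was lower too, by less: it averaged 10.46 ± 0.04 in MCF10A Snail against 10.81 ± 0.07 in MCF10A Vector.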

How the data were processed

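The measurements are 18 arrays of the Human Gene 1.0 ST type, read as total RNA. The authors deposited log2 values for 33297 probe sets, and the submitters' processing notes name RMA as their source. Its version is not given in the sources used here. RMA compresses differences of dim genes, so folds are understated there, and no detection calls were used. Groups came from the sample titles. The platform annotation gave 19460 probe sets 1 symbol, 1754 several and left 12083 unlisted, and 19429 were updated through the GRCh38.p14 gene table. The probe set with the highest mean stood for each of 18417 genes. Array medians lay between 7.698 and 7.793, and replicates correlated at 0.99 to 0.997. The number of arrays limits the precision.

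Differences came from limma 3.58.1 in R 4.3.3, which fitted 6 group means to all arrays and left 12 residual degrees of freedom. P-values were adjusted by Benjamini and Hochberg's method across all genes and called at 0.05. The fit was tested on simulated data. The 8 genes and all lists were chosen with earlier results of these data known, and the 8 genes carry no test. The text names the 8 genes, their relatives, the introduced factors, line and epithelial markers and REST. It also names up to 4 genes with the largest called difference per other list and comparison, and the 3 closest profiles per gene. Alternatives were normalization, centring, a filter on dim genes, the variance model, replicate blocks, probe set means, the groups fitted, a fold limit and arrays left out. Promoter windows came from RefSeq. Figures were drawn with matplotlib 3.10.9.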

Additional observations from a re-analysis of the deposited data

Results flagged for a closer look

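Several genes moved in opposite directions with the same factor in the HMLE and MCF10A lines, or differed between them in the test of the difference of effects. In GPM6B, NAV3 and RNF182 the Snail group lay wholly on one side of vector in HMLE and wholly on the other side in MCF10A. CNTN1 met the same rule with Twist, but at low levels in the MCF10A-labelled groups. How many of all genes meet this rule was not counted, and nothing is read from the number of members that do. The differences of these genes were not tested because the genes were chosen on them. GPM6B differed by 1.50 with Snail in HMLE and by -1.30 in MCF10A, a difference of effects of 2.80. NAV3 differed by -0.37 and 0.81, a difference of -1.18. RNF182 differed by -0.76 and 0.97, a difference of -1.74. CNTN1 differed by -4.73 with Twist in HMLE and by 0.20 in the labelled MCF10A Twist arrays, a difference of -4.92. Its means of 4.80 there and 4.60 in MCF10A Vector were both below 5.7, under which 10% of all gene values lay. No change of direction is read for CNTN1 from them.

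Among the relatives, the Snail effects of opposite or unequal size that passed the test at a difference of at least 1 were those of the phosphatase PTPRZ1 (-3.01, adjusted p = 4.18e-08), L1CAM (-2.74, adjusted p = 2.4e-11) and CNTN3 (2.70, adjusted p = 3.07e-07). The same held for the scaffolds MPP7 (1.89, adjusted p = 1.93e-09) and CASK (1.00, adjusted p = 1.52e-06), and for KCNIP3 (1.26, adjusted p = 6.02e-10) and NAV2 (1.26, adjusted p = 4.92e-08). NFASC (1.13, adjusted p = 7.19e-07) and AK9 (1.04, adjusted p = 9.39e-05) were the other 2. For Twist they were ANK3 (1.83, adjusted p = 1.82e-08), NAV1 (1.66, adjusted p = 6.89e-11) and CNTN3 (1.56, adjusted p = 0.000132). The Twist values rest on the arrays labelled MCF10A Twist, whose MTAP level of 10.80 lay above the HMLE group means of 9.83 to 10.26 and far above the 6.02 and 5.98 of the other MCF10A groups. What part of these differences comes from the line was not tested.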

How the results depend on the processing

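The differences of the 8 genes kept their direction wherever they reached 2-fold, under quantile normalization, median centring and with each array left out in turn. The mean of probe sets could not move them, because each of these genes had 1 probe set. The largest shift in 336 values with an array left out was 0.30, for AK5 with Snail in MCF10A. Median centring moved CNTN1 with Twist in HMLE to -4.69. The replicate numbers did not pair the groups compared (correlations of same-numbered deviations from -0.52 to 0.33). A replicate block could not shift the 8 genes' differences, because every group held the same replicate numbers, and nothing is read from that fit for them.

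Of 124 measured list genes, 71 were called with Snail in HMLE (68 to 72 with an array left out), 62 with Twist in HMLE (58 to 62), 36 with Snail in MCF10A (34 to 38), 68 in labelled MCF10A Twist against MCF10A Vector (63 to 67), 55 between the vector groups (54 to 57), 54 between HMLE Snail and HMLE Twist (43 to 53) and 74 between labelled MCF10A Twist and HMLE Vector (65 to 72). Without the arrays labelled MCF10A Twist in the fit, a choice made after seeing the data, the 5 counts that do not need them were 71, 62, 36, 56 and 55. A 2-fold limit left 31, 28, 9, 26, 21, 16 and 34 in the order above. A filter on dim genes, which kept 45 of the 124, left 39 with Snail and 33 with Twist in HMLE, 40 in labelled MCF10A Twist against either vector group and 29 between HMLE Snail and HMLE Twist, where fewer genes were tested. The replicate block gave 72, 62, 37, 70, 56, 55 and 75. The number of arrays and the dim end of the RMA scale limit what small differences can show.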
